A study of Mus musculus with 9 samples.

Results

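The 8 genes described here encode enzymes of the route from acetyl-CoA to cholesterol, which are Hmgcs1, Idi1, Fdps, Fdft1, Sqle, Lss, Cyp51 and Dhcr7 in pathway order. Their probe sets were all those of the array whose gene symbol in the platform annotation is one of these names, which gave 11 of 12422 probe sets and 8 of 8251 genes. None of the 8 takes up cholesterol from outside the cell, so they are called the cholesterol synthesis genes. Fdps had 4 probe sets and each other gene had 1. Of the 11 probe sets, 10 passed the filter on low values and were tested. The fourth Fdps probe set, 162217_r_at, read between 23.75 and 66.01 on all arrays, under the floor of 197 that stood in for the limit of detection.

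RNA came from mouse prostate epithelial cells in culture, a line labelled Rb-/- (called Rb-null) and a wild-type line, both in RPMI-1640 medium. Rb1, the targeted gene, encodes the retinoblastoma protein, which restrains E2F transcription factors. The groups were Rb-null cells kept 48 h without serum (2 arrays), Rb-null cells with 5% fetal bovine serum (2 arrays), wild-type cells kept 48 h without serum (2 arrays) and wild-type cells with 5% fetal bovine serum (3 arrays). Each genotype is represented by 1 line, and nothing in the labels tells whether replicate arrays are from different cultures. A genotype difference is therefore a difference between these lines, and p-values measure only the spread between arrays, whose number limits the precision.

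Cells make cholesterol in the cytosol and the endoplasmic reticulum. Acetyl-CoA units are joined into HMG-CoA and mevalonate, built up into isoprenoids and squalene, closed into the ring of lanosterol and trimmed to cholesterol. The genes of the route are known to be switched on together by SREBP transcription factors, which leave the endoplasmic reticulum when its membrane holds little sterol. Serum carries lipoprotein cholesterol as well as growth factors, so its removal takes away both an outside sterol source and a growth stimulus. The isoprenoids made midway along the route also serve protein prenylation, and prostate epithelium is known for active sterol synthesis.

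Promoter sequence is shown for 3 genes because every call among the members on serum withdrawal, described further on, was a decrease and the route is known for a shared regulator. Promoters of 5 of the 8 genes (Hmgcs1, Idi1, Lss, Cyp51 and Dhcr7) were matched by symbol in RefSeq sequences of the mouse assembly GRCm38.p6. Each window holds the 250 bases before the annotated start, written 5′ to 3′ on the gene's own strand, and capitals mark every match, on either strand, to TCACNCCAC (the letters of a sterol regulatory element, bound by SREBP), CCAAT (bound by NF-Y) or GGGCGG (bound by Sp factors). Hmgcs1 lies at chr13:119690101-119690350 on the plus strand, Idi1 at chr13:8885356-8885605 on the plus strand and Cyp51 at chr5:4104698-4104947 on the minus strand.
Hmgcs1: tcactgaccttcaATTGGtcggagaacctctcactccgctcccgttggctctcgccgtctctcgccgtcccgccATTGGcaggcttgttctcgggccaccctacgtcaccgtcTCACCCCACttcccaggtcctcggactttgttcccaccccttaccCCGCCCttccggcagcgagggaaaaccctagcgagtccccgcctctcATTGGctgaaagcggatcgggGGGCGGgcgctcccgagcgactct
Idi1: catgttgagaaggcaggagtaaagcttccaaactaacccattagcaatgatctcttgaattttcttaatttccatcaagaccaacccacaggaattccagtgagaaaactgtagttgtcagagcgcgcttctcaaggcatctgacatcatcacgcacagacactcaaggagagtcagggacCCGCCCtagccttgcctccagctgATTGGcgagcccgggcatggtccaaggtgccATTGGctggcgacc
Cyp51: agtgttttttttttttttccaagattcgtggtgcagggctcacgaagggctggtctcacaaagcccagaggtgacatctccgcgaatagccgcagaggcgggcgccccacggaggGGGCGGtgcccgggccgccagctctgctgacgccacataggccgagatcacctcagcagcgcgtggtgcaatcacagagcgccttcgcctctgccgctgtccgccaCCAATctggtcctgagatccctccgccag

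In Hmgcs1 the sterol regulatory letters TCACCCCAC stood 137 bases before the start. That pattern was not found in the windows of the other 4 genes, and 1.05% of 32851 RefSeq promoter windows of the same length held it. CCAAT occurred 3 times in Hmgcs1, 2 times in Idi1 (45 and 14 bases before the start), 1 time in Cyp51 (29 bases before the start) and 1 time in Lss, and it also stood in 1 of 3 windows listed for Dhcr7. Across all windows 33.8% held CCAAT and 32.7% held GGGCGG. The E2F letters TTTNNCGC were in none of the windows of the 5 genes and in 4.28% of all windows. No 2 matches overlapped. These are matches of letters and not measured binding sites.

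The deposited values were linear intensities, which were quantile normalized before use. Their medians per array ran from 444.8 to 473.8 before that step. The Rb1 probe set 97948_at read 166.5 to 171.2 in Rb-null cells without serum and 109.5 to 114.2 in Rb-null cells with serum, all under the floor, against 370.4 to 385.7 in wild-type cells without serum and 367.7 to 714.5 in wild-type cells with serum. With the Rb-null arrays raised to the floor, the log2 difference over both media was -1.10 (limma, adjusted p = 0.000923), a size that the floor sets, and with a floor at percentile 40 it was -0.34 (adjusted p = 0.126). Every Rb-null array read below every wild-type array. The epithelial markers Krt8, Krt18, Krt19, Krt5, Krt14, Cdh1 and Epcam were above the floor on all 9 arrays, as were Hoxb13 and Trp63. Markers of other cell types were in part above the floor too, in 6 of 8 measured fibroblast, 2 of 5 smooth muscle, 3 of 4 endothelial, 4 of 5 leukocyte and 0 of 3 adipocyte genes on at least 2 arrays. Wild-type serum array 1 stood apart from its group, with rank correlations of 0.986 and 0.983 with the other wild-type serum arrays against 0.997 between those, so counts are also given without it.

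Serum withdrawal lowered most of the cholesterol synthesis genes in both lines. In Rb-null cells 7 of the 10 tested probe sets, of 6 genes, fell and none rose, where 6.42% of all 9686 tested probe sets fell and 7.5% rose. In wild-type cells 6 of 10, of 5 genes, fell and none rose, where 9.25% of all tested probe sets fell and 6.61% rose. The steepest decreases were of Idi1 and Cyp51 in each line. Every result rests on limma fitted over all tested probe sets, two-sided, with Benjamini-Hochberg adjustment and a threshold of 0.05. The median log2 difference over the 10 probe sets was -0.57 in Rb-null and -0.43 in wild-type cells, beside 0.000225 and 0.05 over all tested probe sets. In RNA of a whole culture, fewer expressing cells and less RNA per cell cannot be told apart.

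At the head of the route stands Hmgcs1 (94325_at), the cytosolic synthase that makes HMG-CoA, the precursor of mevalonate. It read 2855 and 1794 in Rb-null cells without serum, 3440 and 3592 in Rb-null cells with serum, 1757 and 1819 in wild-type cells without serum, and 2715, 2472 and 2387 in wild-type cells with serum. Both serum-free groups lay wholly below the serum arrays of their own line, and the Rb-null serum-free arrays were far apart. Hmgcs1 fell by 0.64 on the log2 scale in Rb-null cells (SE 0.17, adjusted p = 0.0406). The wild-type difference of -0.50 (SE 0.16) did not pass, with adjusted p = 0.068. Without Rb-null serum-free array 2 the Rb-null difference was -0.30 (adjusted p = 0.12).

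Idi1 (96269_at) encodes the isomerase that interconverts the basic isoprenoid units, and it had the steepest decrease of the 8. Its values were 1047 and 836.7 in Rb-null cells without serum, 2878 and 2894 in Rb-null cells with serum, 754.7 and 780.9 in wild-type cells without serum, and 2002, 1709 and 1608 in wild-type cells with serum. The 4 groups did not overlap at any point, in the order Rb-null with serum, wild type with serum, Rb-null without serum and wild type without serum. How many of all tested probe sets formed 4 separate groups was not counted. Idi1 was 3.08-fold lower without serum in Rb-null cells (log2 difference -1.62, SE 0.13, adjusted p = 5.66e-05) and 2.30-fold lower in wild-type cells (log2 difference -1.20, SE 0.12, adjusted p = 0.000164).

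Fdps encodes farnesyl diphosphate synthase, whose product feeds both sterols and protein prenylation. The probe set 99098_at read 3034 and 2211 in Rb-null cells without serum, 3916 and 4041 in Rb-null cells with serum, 2915 and 2860 in wild-type cells without serum, and 4440, 4387 and 4146 in wild-type cells with serum. On 160424_f_at, whose suffix marks a probe set that can pick up related transcripts, the values were 3114 and 2725, 4283 and 4111, 3058 and 3368, and 3660, 4266 and 4341 in that order of groups. Serum-free arrays lay below serum arrays in each line on both probe sets, while the lines overlapped without serum. Fdps fell by 0.62 (SE 0.12, adjusted p = 0.0097) in Rb-null and by 0.58 (SE 0.11, adjusted p = 0.00752) in wild-type cells on 99098_at. On 160424_f_at it fell by 0.53 (SE 0.10, adjusted p = 0.00813) and by 0.35 (SE 0.09, adjusted p = 0.0336) in these lines. The third probe set, 162281_at, differed from these. It ran from 232 to 382.3 over all 9 arrays, close to the floor, and serum-free and serum arrays overlapped in each line. Its differences were -0.08 in Rb-null and 0.24 in wild-type cells, neither past the threshold.

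Fdft1 (97518_at) encodes squalene synthase, the first step committed to sterols. It read 1770 and 1577 in Rb-null cells without serum, 2052 and 2085 in Rb-null cells with serum, 1770 and 1854 in wild-type cells without serum, and 2253, 2119 and 2090 in wild-type cells with serum. All serum-free arrays were below all serum arrays, and the lines overlapped without serum. Fdft1 fell by 0.31 in Rb-null cells (SE 0.08, adjusted p = 0.0357), and its wild-type difference of -0.25 (SE 0.08) just missed the threshold at adjusted p = 0.0537.

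Sqle (94322_at), squalene epoxidase, adds the oxygen that lets squalene close into rings and is known as a control point of the route. Its values were 2112 and 1756 in Rb-null cells without serum, 3365 and 3455 in Rb-null cells with serum, 1740 and 1593 in wild-type cells without serum, and 2531, 2358 and 2237 in wild-type cells with serum. The groups took the same order as for Idi1 with no overlap, although the Rb-null and wild-type serum-free arrays came as close as 1756 and 1740. Sqle was 1.77-fold lower without serum in Rb-null cells (log2 difference -0.82, SE 0.10, adjusted p = 0.000827) and 1.42-fold lower in wild-type cells (log2 difference -0.51, SE 0.09, adjusted p = 0.00559).

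Lss (160737_at), lanosterol synthase, closes the sterol rings. It read 868.2 and 969.1 in Rb-null cells without serum, 1238 and 1130 in Rb-null cells with serum, 970.7 and 1072 in wild-type cells without serum, and 1270, 1228 and 1472 in wild-type cells with serum. Serum-free arrays were below serum arrays in each line, while the Rb-null arrays lay just below the wild-type arrays without serum and overlapped them with serum. The differences were alike in size, -0.37 (SE 0.11, adjusted p = 0.0666) in Rb-null and -0.37 (SE 0.10, adjusted p = 0.0414) in wild-type cells, of which the second passed.

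Cyp51 (94916_at), the lanosterol demethylase that azole drugs block in fungi, starts the trimming of lanosterol. Its values were 993.5 and 809.9 in Rb-null cells without serum, 1877 and 1963 in Rb-null cells with serum, 677 and 594.2 in wild-type cells without serum, and 1409, 1145 and 1060 in wild-type cells with serum. Again the 4 groups did not overlap and took the order seen for Idi1. Without serum Cyp51 was 2.14-fold lower in Rb-null cells (log2 difference -1.10, SE 0.15, adjusted p = 0.0014) and 1.89-fold lower in wild-type cells (log2 difference -0.92, SE 0.14, adjusted p = 0.0019).

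Dhcr7 (98989_at) encodes the reductase that completes cholesterol, mutated in human Smith-Lemli-Opitz syndrome. It read 378.8 and 306.7 in Rb-null cells without serum, 417.6 and 379.1 in Rb-null cells with serum, 285.2 and 325.3 in wild-type cells without serum, and 328.4, 377 and 396.4 in wild-type cells with serum. Serum-free arrays lay below serum arrays in each line, by small gaps. Neither difference passed, at -0.22 in Rb-null cells (95% interval -0.52 to 0.07, adjusted p = 0.366) and -0.27 in wild-type cells (adjusted p = 0.184).

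**Figure D1:**
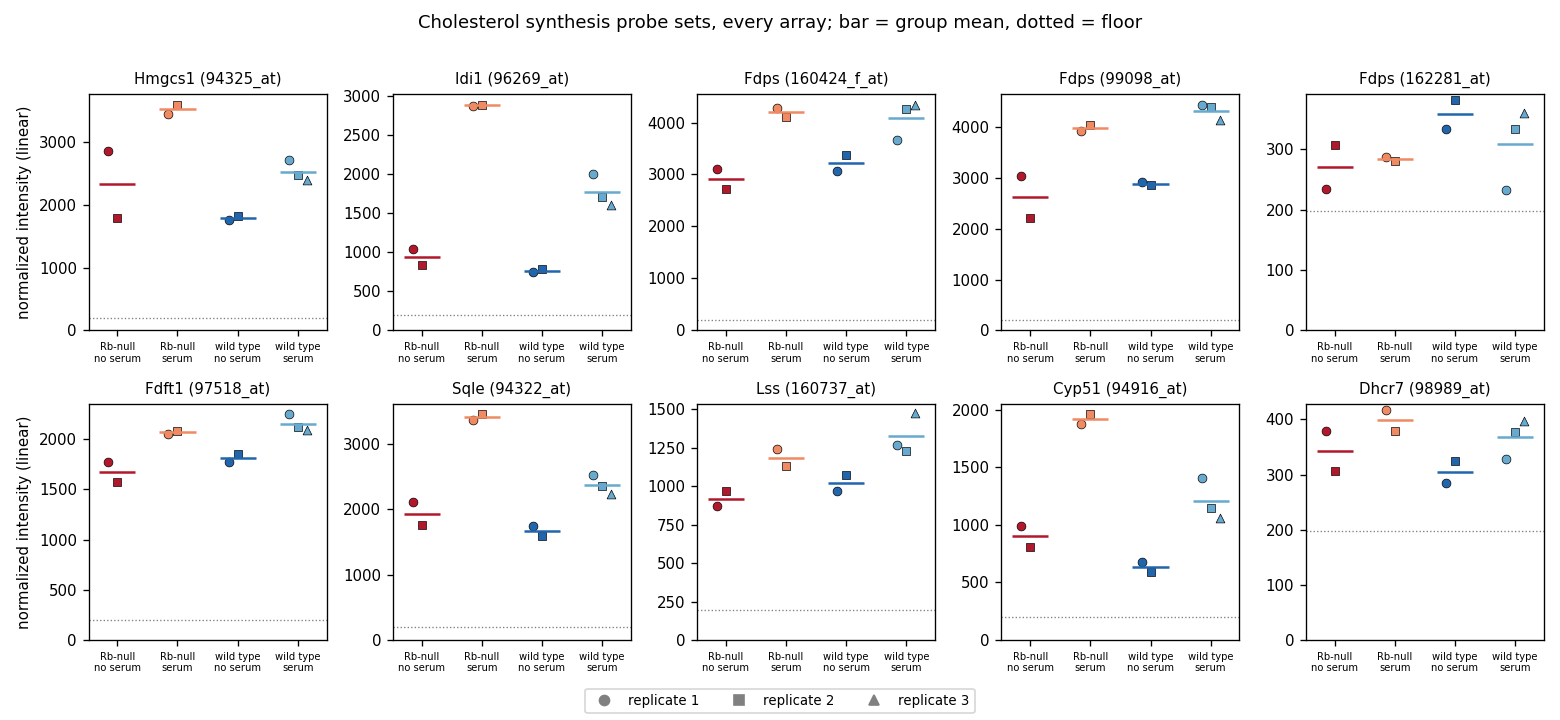
Normalized intensity (linear axis from 0) of the 10 tested probe sets on every array, grouped from left to right as Rb-null without serum, Rb-null with serum, wild type without serum and wild type with serum. Points are arrays with a shape per replicate, bars are group means and the dotted line is the floor of 197. Idi1, Sqle and Cyp51 show 4 separate groups, a pattern not counted over all tested probe sets. For Fdps 162281_at the serum-free and serum arrays overlap in each line.

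Set against the rest of the array, the serum-free arrays lay wholly below the serum arrays for 9 of 10 probe sets in Rb-null cells, where 26.3% of all tested probe sets did so, and for 9 of 10 in wild-type cells, where 19.2% did. The exception in both lines was Fdps 162281_at. The probe sets that fell in both lines numbered 5, of Idi1, Fdps, Sqle and Cyp51, whereas 4.39% of all tested probe sets fell in both. Without wild-type serum array 1, 8 fell in Rb-null and 6 in wild-type cells, where 10.9% and 10.6% of all tested probe sets fell. Removing either Rb-null serum array, Rb-null serum-free array 2 or either wild-type serum-free array left 1 array in that group. Fewer of the member probe sets then fell past the threshold in that line, and so did fewer of all tested probe sets. Removing Rb-null serum-free array 1 also left 1 array in its group. The member count in Rb-null cells then stayed the same, while fewer of all tested probe sets fell. The decreases of Idi1 and Cyp51 in both lines and of Sqle in Rb-null cells passed under each of the 17 other settings tried. In wild-type cells Sqle missed the threshold only without wild-type serum-free array 2, with adjusted p = 0.077.

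The smaller decreases depended on single arrays. In Rb-null cells the calls of Hmgcs1 and Fdft1 were lost on leaving out any array except wild-type serum 1, wild-type serum 3 or Rb-null serum-free 1. Those of Fdps were lost without either Rb-null serum array and, on 160424_f_at, without Rb-null serum-free array 2. In wild-type cells both Fdps calls were lost without either wild-type serum-free array, and that on 160424_f_at also without wild-type serum array 2 or 3 or either Rb-null serum array. The Lss call in wild-type cells held only where wild-type serum array 1 or 2 was the one left out. In the other direction, Hmgcs1 and Fdft1 passed in wild-type cells without either Rb-null serum-free array, and Lss passed in Rb-null cells without wild-type serum array 1 or 3. The signs of these differences stayed negative in each case.

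**Figure D2:**
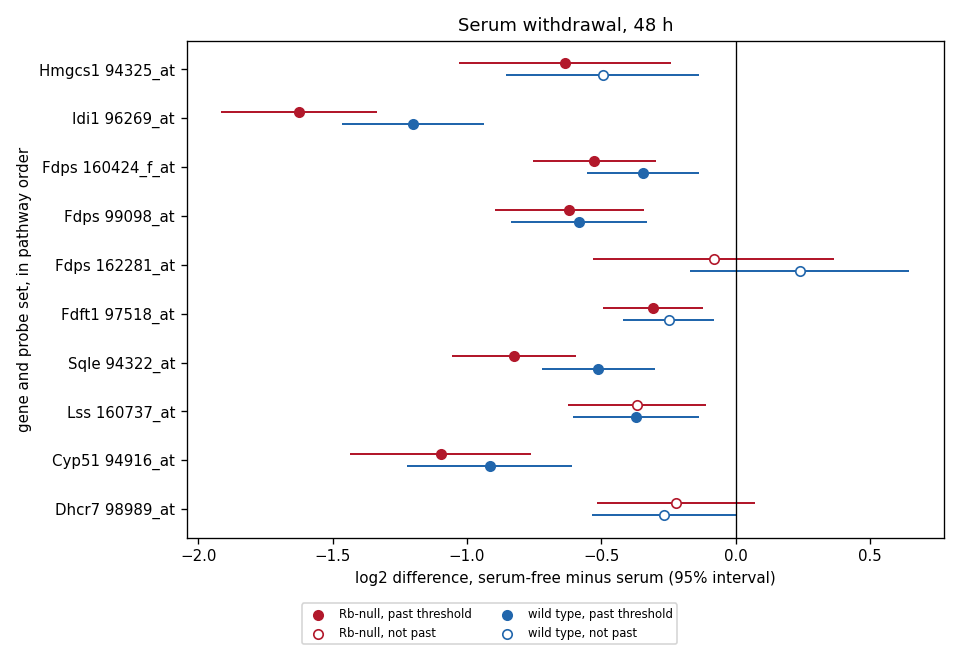
Log2 difference of serum-free minus serum cells for each tested probe set in pathway order, in Rb-null cells (red, upper) and wild-type cells (blue, lower), with 95% intervals from limma. Filled points passed an adjusted p of 0.05. Idi1 lies farthest from 0 at -1.62 in Rb-null and -1.20 in wild-type cells.

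The lines were also compared with each other, which addresses whether these lines differed in the level of the route. Idi1, Sqle, Cyp51 and Hmgcs1 were higher in Rb-null cells over the mean of both media, and the levels of Fdps, Fdft1, Lss and Dhcr7 did not pass the test. That made 4 of 10 tested probe sets higher and 0 lower, where 21.8% of all tested probe sets were higher and 23.4% lower. The median log2 difference of the 10 was 0.05, against -0.05 over all tested probe sets, and it was 0.15 against 0.01 with deposited values and 0.11 against -0.02 on a common median. Averaged over both media, Cyp51 was 1.51-fold higher (log2 difference 0.59, SE 0.10, adjusted p = 0.00154), Idi1 1.41-fold (0.50, SE 0.09, adjusted p = 0.00177) and Sqle 1.29-fold (0.37, SE 0.07, adjusted p = 0.00267). Hmgcs1 was higher by 0.41 (SE 0.12, adjusted p = 0.0204). The others lay between -0.26 for Fdps 162281_at and 0.14 for Dhcr7.

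With serum present the contrast was sharpest for Idi1, which was 1.63-fold higher in Rb-null cells (log2 difference 0.71, SE 0.12, adjusted p = 0.00263). Cyp51 was 1.60-fold higher (0.68, SE 0.14, adjusted p = 0.00665) and Sqle 1.44-fold higher (0.52, SE 0.09, adjusted p = 0.00385). Hmgcs1 had a difference of 0.48 (SE 0.16, adjusted p = 0.0577) that missed the threshold although its Rb-null arrays lay wholly above the wild-type arrays, and it passed without wild-type serum array 1 or either Rb-null serum-free array. This gave 3 of 10 probe sets higher and 0 lower in serum, where 13.2% of all tested probe sets were higher and 10.4% lower. The Rb-null arrays lay wholly above the wild-type arrays for 4 probe sets, of Hmgcs1, Idi1, Sqle and Cyp51, and wholly below for 2, of Fdps and Fdft1, where 22.9% and 26.6% of all tested probe sets did so. The enzymes between Idi1 and Sqle did not share the difference, with 0.04 (95% interval -0.17 to 0.25) for Fdps 160424_f_at, -0.12 (-0.37 to 0.13) for Fdps 99098_at and -0.06 (-0.23 to 0.11) for Fdft1. The signs of Fdps 99098_at and Fdft1 turned positive when the deposited values were used without quantile normalization or scaled to a common median, still short of the threshold.

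Without serum only Cyp51 remained past the threshold among the 10, 1.41-fold higher in Rb-null cells (log2 difference 0.50, SE 0.15, adjusted p = 0.033), where 16.8% of all tested probe sets were higher and 13.9% lower. Idi1 differed by 0.29 (95% interval -0.00391 to 0.58, adjusted p = 0.114), Hmgcs1 by 0.34 (adjusted p = 0.157) and Sqle by 0.21 (adjusted p = 0.14). The Rb-null serum-free arrays nevertheless lay wholly above the wild-type serum-free arrays for 3 probe sets, of Idi1, Sqle and Cyp51, where 30.5% of all tested probe sets did so, and wholly below for 2, of Fdps 162281_at and Lss, where 43.8% did. The Cyp51 call was lost on leaving out wild-type serum-free array 1 or 2, Rb-null serum array 1 or 2, or Rb-null serum-free array 1, with differences of 0.35 to 0.59. Hmgcs1 passed at 0.67 (adjusted p = 0.00434) without Rb-null serum-free array 2.

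**Figure D3:**
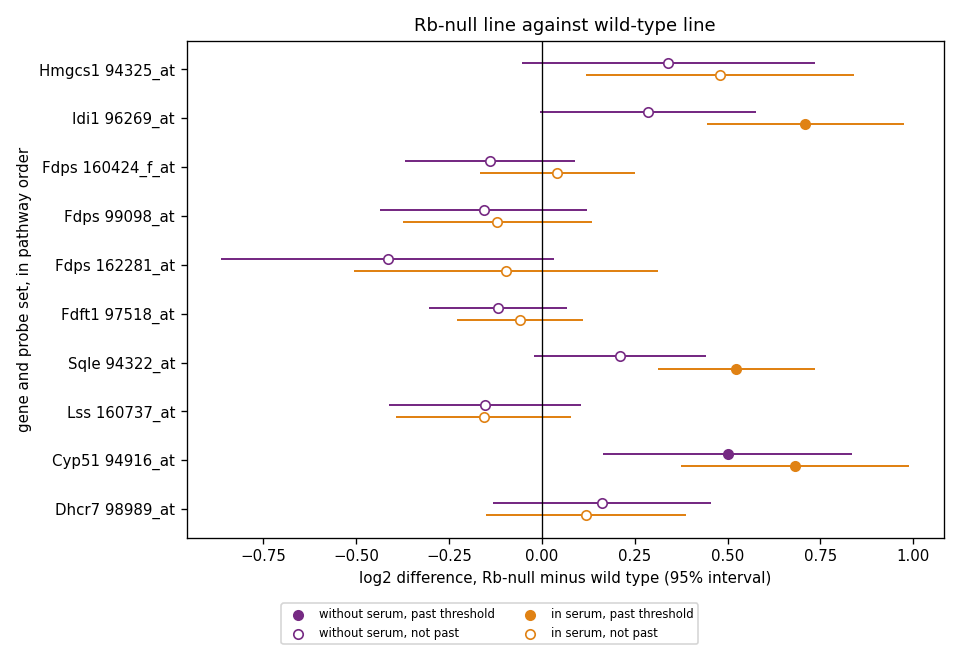
Log2 difference of Rb-null minus wild-type cells for each tested probe set in pathway order, without serum (purple, upper) and with serum (orange, lower), with 95% intervals from limma. Filled points passed an adjusted p of 0.05. Idi1, Sqle and Cyp51 passed with serum, and Cyp51 alone passed without.

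Leaving out wild-type serum array 1 changed the count over both media to 5, with 4 higher and 1 lower, that in serum to 4 higher, and that without serum to 3, with 2 higher and 1 lower. Calls over all tested probe sets also became more frequent, with 27% higher and 36% lower over both media, 21.7% and 23.6% in serum, and 23.3% and 28.3% without serum. The lower member was Fdps 162281_at, at -0.35 over both media (adjusted p = 0.00574). Without Rb-null serum-free array 1, Fdps 99098_at was lower at -0.25 over both media (adjusted p = 0.00618) and at -0.38 without serum (adjusted p = 0.0171). The genotype calls of Idi1, Sqle and Cyp51 over both media passed under all 16 other settings. Hmgcs1 passed under 11 of the 16 and missed the threshold without either wild-type serum-free array, without either Rb-null serum array, and with no filter on low values. In serum, Idi1 and Sqle passed under all 17 settings, while Cyp51 missed without Rb-null serum array 2 (adjusted p = 0.0709).

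Markers of other cell types were counted in the same way. Over both media 4 of 15 tested were lower and 0 higher in Rb-null cells, where 23.4% of all tested probe sets were lower and 21.8% higher. The 4 were Col1a2 (1 of 6 tested fibroblast markers), Des (1 of 2 for smooth muscle), Pecam1 (1 of 3 for endothelium) and Cd3g (1 of 4 for leukocytes). Summed intensity of the tested fibroblast markers ran from 3207 to 3416 in Rb-null cells without serum, 3325 to 3453 in Rb-null cells with serum, 3970 to 4028 in wild-type cells without serum and 3118 to 4074 in wild-type cells with serum. The smooth muscle sums in the same order were 1036 to 1073, 1038 to 1048, 1330 to 1466 and 1007 to 1384. For endothelium they were 1186 to 1278, 1314 to 1340, 1475 to 1532 and 1358 to 1689, and for leukocytes 1502 to 1509, 1453 to 1500, 1653 to 1778 and 1345 to 1700. Col1a1, Col1a2, Pdgfra, Tagln, Des, Kdr, Pecam1, Cd68 and Itgam were among those above the floor on all 9 arrays, while Vim, Pdgfrb, Acta2, Myh11, Cnn1, Tek and Ptprc were under it on all 9. The prostate epithelial markers Hoxb13 and Foxa1, 2 of 3 tested, were higher in Rb-null cells over both media, beside 21.8% of all tested probe sets. The part of these markers in the genotype differences was not tested. On serum withdrawal 0 of the 15 tested markers of other cell types passed in either line by limma. At an unadjusted p under 0.05 there were also 0. The keratins Krt8 and Krt18, 2 of 7 tested epithelial markers, fell on withdrawal in Rb-null cells, where 6.42% of all tested probe sets fell.

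Whether the decrease on withdrawal differed between the lines was tested as an interaction, the Rb-null minus the wild-type difference. It passed for 0 of 10 probe sets in limma, where 0.929% of all tested probe sets passed. At an unadjusted p under 0.05 there were 2, Idi1 at -0.42 (95% interval -0.82 to -0.03, adjusted p = 0.419) and Sqle at -0.31 (95% interval -0.63 to -0.00116, adjusted p = 0.455). The intervals of the other genes all crossed 0, with Cyp51 at -0.18 (-0.64 to 0.27) and Hmgcs1 at -0.14 (-0.67 to 0.39). A steeper decrease in Rb-null cells was thus not shown for any of the 8 genes after adjustment, nor was an equal one.

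Arrays of a group varied unequally. Between the Rb-null serum-free arrays, array 1 read above array 2 for 7 of the 8 genes (Fdps by 160424_f_at), with a median gap of 0.28 on the log2 scale and a largest of 0.67 for Hmgcs1. The median absolute gap between that pair was 0.10 over all tested probe sets. The Rb-null serum arrays were close, with gaps of 0.14 at most among the 8 genes. In wild-type serum, array 1 exceeded array 2 for 6 of 8 genes and array 3 for 5 of 8. The median absolute gaps of the 8 genes were 0.17 and 0.23 there, beside 0.17 and 0.18 over all tested probe sets.

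The remaining enzymes of the route gave a mixed picture. Of 15 other synthesis genes on the list, 10 were measured and tested. On withdrawal 2 fell and 0 rose in Rb-null cells (median -0.28), and 5 fell and 0 rose in wild-type cells (median -0.36), where 6.42% and 9.25% of all tested probe sets fell. Lbr, a nuclear membrane protein that also reduces a sterol double bond, read 932.9 and 875.4 in Rb-null cells without serum, 1675 and 1544 in Rb-null cells with serum, 693.1 and 672.9 in wild-type cells without serum, and 1656, 1491 and 1519 in wild-type cells with serum. It fell by 0.83 in Rb-null (adjusted p = 0.000383) and by 1.19 in wild-type cells (adjusted p = 2.13e-05). Sc5d, a sterol desaturase, fell by 0.58 (adjusted p = 0.0379) in Rb-null and by 0.54 (adjusted p = 0.0306) in wild-type cells on 102769_f_at. The _f suffix marks a probe set that can pick up related transcripts. On 102768_i_at Sc5d fell by 0.55 in Rb-null cells (adjusted p = 0.00374), but the wild-type difference was -0.06 (adjusted p = 0.645). There the wild-type serum-free values, 67.3 and 58.82, and the serum values 134 and 94.55 lay under the floor of 197, which limits that difference. The other wild-type decreases were of Nsdhl (-0.48), Msmo1 (-0.40) and Hsd17b7 (-0.40), which act between lanosterol and the last steps. Only the Lbr calls passed in both lines under all 17 other settings, and over these the number of genes that fell ran from 1 to 4 in Rb-null and from 1 to 5 in wild-type cells. The calls of Sc5d, Nsdhl, Msmo1 and Hsd17b7 were all lost without wild-type serum-free array 1 or 2. Wild-type serum array 2 also decided those of Sc5d, Msmo1 and Hsd17b7, wild-type serum array 3 that of Nsdhl, either Rb-null serum array those of Sc5d, Nsdhl and Msmo1, Rb-null serum-free array 2 those of Sc5d in Rb-null cells and Msmo1, and wild-type serum array 1 and Rb-null serum-free array 1 that of Msmo1.

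Between the lines, over both media, Sc5d (0.46), Lbr (0.23) and Ggps1 (0.23), the branch enzyme towards geranylgeranyl diphosphate, were higher in Rb-null cells. Tm7sf2, a sterol reductase that acts on the same substrate as Lbr, was lower, at -0.39 (adjusted p = 0.00365). The list therefore had 3 of 10 higher and 1 lower, beside 21.8% higher and 23.4% lower of all tested probe sets. Mvd (-0.13), Ebp (0.01), Msmo1 (0.14), Nsdhl (-0.02) and Hsd17b7 (-0.04) did not pass. Mvk, mevalonate kinase, did not pass either on its brightest probe set, 95633_r_at (-0.14, adjusted p = 0.0875 in limma). On 95632_f_at it was past the threshold and lower in Rb-null cells, at -0.19 over both media and -0.29 without serum, so its probe sets disagreed. Over the 16 other settings the value over both media ran from -0.20 to -0.16. The Lbr call was lost without wild-type serum-free array 2, Rb-null serum array 1 or Rb-null serum-free array 1, and the Ggps1 call without those or Rb-null serum array 2. By medium, Lbr differed by 0.05 in serum and 0.40 without serum, of which the second passed. Ggps1 differed by 0.35 in serum and 0.10 without serum, of which the first passed. The interaction did not pass for either gene.

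Of 10 genes of sterol sensing, 4 were measured and 3 tested. Insig1, which holds SREBP back in the endoplasmic reticulum, read 53.54 to 77.97 and was under the floor on all arrays. Srebf1, which encodes an SREBP more tied to fatty acid genes, read 2492 and 2338 in Rb-null cells without serum, 2334 and 2101 in Rb-null cells with serum, 1942 and 1879 in wild-type cells without serum, and 1975, 1945 and 2016 in wild-type cells with serum. It was higher in Rb-null cells on every array, by 0.25 over both media (SE 0.05, adjusted p = 0.00472). On withdrawal Srebf1 had differences of 0.12 in Rb-null and -0.05 in wild-type cells, and 0 of the 3 tested genes passed in limma in either line, with 0 also at an unadjusted p under 0.05. Mbtps1, a protease that cuts SREBP, had a genotype difference of -0.15 (adjusted p = 0.0495) that turned positive under both other scalings and passed under 4 of 16 other settings. Over both media 1 of the 3 tested genes was thus higher and 1 lower, where 21.8% of all tested probe sets were higher and 23.4% lower.

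Few uptake and transport genes passed the test. Of 12 on the list, 8 were tested, and the 1 that passed on withdrawal was Npc2, which hands cholesterol out of the lysosome. Of all tested probe sets 7.5% rose in Rb-null and 6.61% in wild-type cells. Npc2 read 4543 and 3971 in Rb-null cells without serum, 3159 and 3276 in Rb-null cells with serum, 4062 and 4013 in wild-type cells without serum, and 2921, 3013 and 3122 in wild-type cells with serum. It rose by 0.40 in Rb-null (adjusted p = 0.00765) and by 0.42 in wild-type cells (adjusted p = 0.00319), opposite in sign to the synthesis genes. The Rb-null call was lost without Rb-null serum array 1 or 2 or Rb-null serum-free array 1. Between the lines Osbp, an oxysterol-binding protein, was higher (0.22, adjusted p = 0.0306) and Vldlr, a lipoprotein receptor, lower (-0.20, adjusted p = 0.027) in Rb-null cells. That was 1 of 8 higher and 1 lower over both media, where 21.8% of all tested probe sets were higher and 23.4% lower. Stard3, which moves cholesterol between endosomes and other membranes, gave 0.01 (adjusted p = 0.913) on its brightest probe set, 95607_at, but was higher by 0.48 (adjusted p = 0.00129) on 162228_f_at, so its probe sets disagreed. The calls of Osbp and Vldlr were lost without wild-type serum-free array 2 and without either Rb-null serum array, that of Osbp also without wild-type serum array 2 or 3 or Rb-null serum-free array 1, and that of Vldlr without wild-type serum-free array 1 or Rb-null serum-free array 2. Of 6 efflux and oxysterol genes 2 were tested, Abcg1 and Apoe, and 0 passed in limma in any comparison, with 0 also at an unadjusted p under 0.05.

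Some fatty acid synthesis genes, which SREBP factors are also known to activate, fell on withdrawal. Of 12 on the list 9 were tested, of which 5 fell and 0 rose in Rb-null cells (median -0.35) and 5 fell and 0 rose in wild-type cells (median -0.45), where 6.42% and 9.25% of all tested probe sets fell. Fasn, fatty acid synthase, read 2402 and 2366 in Rb-null cells without serum, 3599 and 3532 in Rb-null cells with serum, 2446 and 2290 in wild-type cells without serum, and 3847, 3831 and 3753 in wild-type cells with serum. It fell by 0.58 (adjusted p = 0.000388) in Rb-null and by 0.69 (adjusted p = 6.2e-05) in wild-type cells, and the lines overlapped without serum. The elongase Elovl6 fell by 0.85 and by 0.63 in these lines, and the desaturase Fads1 by 0.63 and by 0.49. The calls of Fasn, Elovl6 and Fads1 passed in both lines under all 17 other settings. In Rb-null cells Scd1 (-0.51) and Scd2 (-0.20), and in wild-type cells Scd1 (-1.36) and Elovl5 (-0.45), were the others that fell. That of Scd1 in Rb-null cells was lost without either Rb-null serum array or Rb-null serum-free array 2, that of Scd2 without any array except wild-type serum 1 or Rb-null serum-free 1, and that of Elovl5 without either wild-type serum-free array. Averaged over both media Scd1 (0.90), Me1 (0.59) and Elovl5 (0.43) were higher and Fads1 (-0.56) lower in Rb-null cells. That made 3 of 9 tested genes higher and 1 lower, where 21.8% of all tested probe sets were higher and 23.4% lower.

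**Figure D4:**
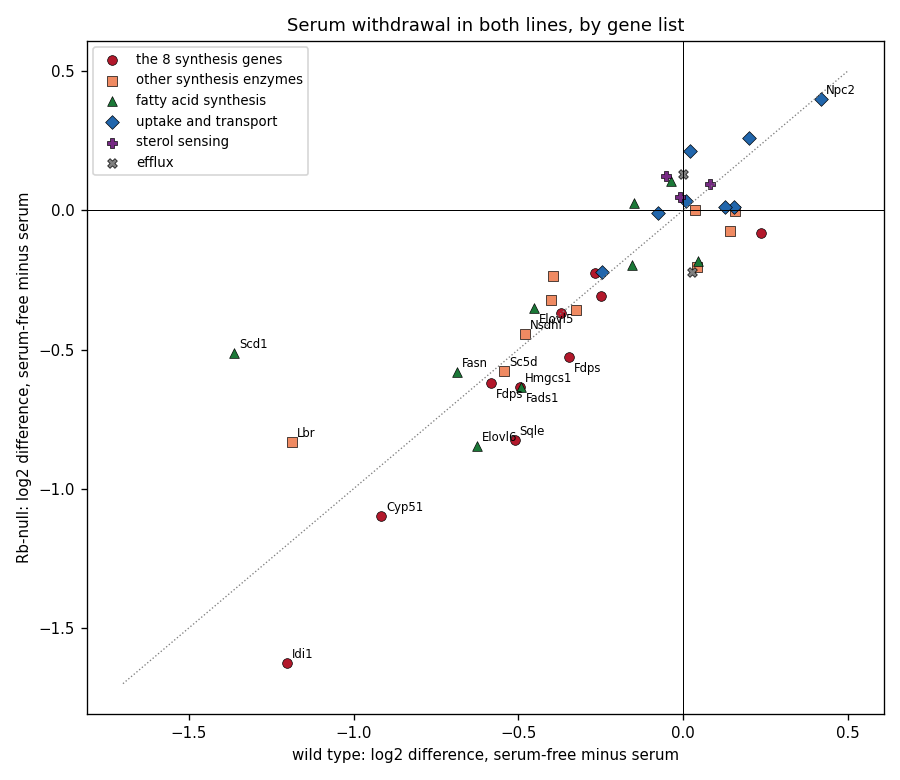
Log2 difference of serum-free minus serum in Rb-null cells (vertical axis) against wild-type cells (horizontal axis) for tested genes of each list, with each list gene by its brightest probe set and the 8 synthesis genes by all tested probe sets. The dotted line marks equal differences. Idi1 lies lowest, Npc2 lies at the upper right with 0.40 and 0.42, and Scd1 and Lbr lie to the left of the dotted line.

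A shared profile of the 8 genes was made from log2 values scaled to mean 0 and SD 1 over the 9 arrays, with 1 probe set per gene. Pearson's r of single genes with this mean was 0.975 for Idi1, 0.927 for Sqle, 0.913 for Cyp51, 0.91 for Fdps, 0.881 for Hmgcs1, 0.853 for Fdft1, 0.823 for Dhcr7 and 0.71 for Lss, in which each gene forms part of the mean. Among tested probe sets of other genes the 8 most like it were those of Elovl6 (94418_at, r = 0.985), Dctpp1 (0.982), Asf1b (0.981), Ncaph (0.981), Rgs16 (0.98), Ccn2 (0.98), Fabp5 (0.979) and Idh2 (0.978). All 9 arrays fall into 4 groups that differ in serum, so these values describe the pattern of groups and carry no p. Asf1b, a histone chaperone used in DNA replication, read 350.5 and 315 in Rb-null cells without serum, 958.6 and 986.3 in Rb-null cells with serum, 281.9 and 318.9 in wild-type cells without serum, and 775.1, 741.5 and 788.4 in wild-type cells with serum. Fabp5, a fatty acid binding protein, read 1472 and 1184, 3179 and 3211, 1103 and 1050, and 2085, 2251 and 2185 in that order of groups. Both were highest in Rb-null cells with serum, where the shared profile was also highest. As both were picked for likeness to that profile, this is no separate result.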

How the data were processed

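The study hybridised total RNA to single-channel arrays, 9 in all. The values deposited by the authors were linear intensities, 1 per probe set and array. Their software and scaling were not given in the sources used here. Upper quartiles spanned 0.22 on the log2 scale, so the deposited intensities were quantile normalized, raised to a floor at the percentile 25 of all values (197) and taken to log2. Probe sets above the floor on at least 2 arrays were tested, 9686 for 7063 genes, and 1 empty probe set was left out. Symbols came from the platform annotation, updated through gene identifiers of a GRCm38.p6 gene table (10832 probe sets had 1 symbol, 396 several and 1193 none).

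Limma 3.58.1 in R 4.3.3 fitted 4 group means over all 9 arrays with an intensity trend (5 residual and 4.20 prior degrees of freedom). The 6 comparisons were Rb-null minus wild type in each medium and averaged with equal weight, withdrawal (serum-free minus serum) in Rb-null and in wild-type cells, and the interaction. Tests were two-sided with Benjamini-Hochberg adjustment over all 9686 probe sets and a threshold of 0.05. The procedure was tested on simulated data. A list gene counts by its brightest probe set.

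The members and lists were chosen with earlier results of these data known. Named were all probe sets of the members, up to 5 genes per list and comparison past the threshold with the smallest adjusted p, fixed sterol regulators, Rb1, and the 8 genes most like the members. A list of mitochondrial and ketone HMG-CoA genes had 0 of 4 measured. Alternatives were deposited and median-scaled values, other floors, no filter, no trend, a replicate block, fits of the compared groups alone, and leaving out each array.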

Additional observations from a re-analysis of the deposited data

Results flagged for a closer look

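The probe set 94057_g_at of Scd1, the desaturase that makes oleic acid, met the threshold for a difference between the lines in their response to serum withdrawal. It read 857 and 601.2 in Rb-null cells without serum, 1189 and 1146 in Rb-null cells with serum, 183.4 and 198.8 in wild-type cells without serum, and 670.6, 814.9 and 772 in wild-type cells with serum. The log2 difference on withdrawal was -0.70 in Rb-null and -1.92 in wild-type cells, and the interaction was 1.22 (limma, SE 0.22, adjusted p = 0.0395). Of the wild-type serum-free values 183.4 lay under the floor of 197, so the wild-type decrease is set in part by the floor. The interaction passed under 4 of 16 other settings, with values from 0.47 to 1.48 and adjusted p up to 0.428, and it was lost on leaving out any array except wild-type serum 1 and Rb-null serum-free 2. On 94056_at, the Scd1 probe set with the highest mean, the interaction was 0.85 (adjusted p = 0.0681). The third Scd1 probe set, 94058_r_at, read 225.4 to 376.3 over all arrays. The _g suffix marks a probe set that can pick up related transcripts.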

How the results depend on the processing

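Of the 10 member probe sets, the 1 past the threshold in the comparison of lines without serum became 2 with values as deposited, 2 on a common median, 2 with only the compared groups, and 0 with no filter. On leaving out each array in turn the counts ran from 3 to 5 for the lines over both media, 2 to 4 in serum, 0 to 3 without serum, 2 to 7 for withdrawal in wild-type and 3 to 8 in Rb-null cells, and stayed at 0 for the interaction. The number of calls over all tested probe sets also changed with the array left out, and leaving out 1 of 2 arrays leaves 1 in that group. Residual correlations of same-numbered arrays were of both signs, from -0.231 to 0.331 over 12 pairs of arrays. In a group of 2 arrays the residuals mirror each other, so these pairs are not independent and cannot settle whether the numbers pair arrays. With replicate number as a block the counts were 4 over both media, 3 in serum, 2 without serum (1 higher, 1 lower), 6 for withdrawal in Rb-null and 4 in wild-type cells, and 0 for the interaction.

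Of 1000 combinations of a member value and another setting, 38 turned the sign, none of them past the threshold before or after. With deposited values the line differences became, for Fdps 160424_f_at, 0.14 over both media and 0.067 without serum, for Fdps 99098_at 0.067, 0.070 and 0.065 (both media, serum, no serum), for Fdft1 0.12, 0.12 and 0.11, and for Lss 0.00112 without serum. On a common median they became 0.11 and 0.031, 0.036, 0.044 and 0.029, and 0.086, 0.097 and 0.074 for the first 3 of these, and the Dhcr7 interaction -0.00808. Under the block Fdps 162281_at became 0.027 in serum, and the interactions of Lss and Dhcr7 -0.076 and -0.015. A floor at percentile 40 gave 0 for the Rb-null withdrawal of Fdps 162281_at and -0.021 for the Dhcr7 interaction. On leaving out 1 array, ranges crossed 0 in serum for Fdps 160424_f_at (-0.036 to 0.087) and 162281_at (-0.29 to 0.027), without serum for Fdps 99098_at (-0.38 to 0.072), and on Rb-null withdrawal for Fdps 162281_at (-0.28 to 0.12). The interaction did so for Hmgcs1 (-0.47 to 0.20), Fdps 99098_at (-0.27 to 0.19), Fdft1 (-0.14 to 0.024), Lss (-0.076 to 0.083) and Dhcr7 (-0.11 to 0.19). Mbtps1 became 0.036 with deposited values and 0.0047 on a common median. The cause of these changes was not tested.

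Scaling moved the split of all tested probe sets. Over both media 48.1% of calls were higher in Rb-null cells, against 69.3% with deposited values and 60.7% on a common median. The shares were 55.9%, 73.4% and 68% in serum, 54.8%, 77.6% and 68.1% without serum, 41.7%, 25.7% and 36.2% for wild-type withdrawal, and 53.9%, 44.4% and 52.9% for Rb-null withdrawal.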
